A study of Mus musculus with 4 samples.

Results

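The gasdermins are a family of proteins that can open pores in the cell membrane, and the 10 gasdermin genes listed in the deposited table were followed here: Gsdmd, Gsdma, Gsdma2, Gsdma3, Gsdmc, Gsdmc2, Gsdmc3, Gsdmc4, Gsdme and Pjvk. They were chosen by family membership and not by their values, and make up 10 of the 24441 genes in the table. All 10 were found by their current symbols. RNA of whole skin was sequenced from GSDMD-/- mice (KO) and wild type mice (WT), with 2 libraries in each group. Every animal was a female of the C57BL/6 strain, 8 weeks old according to the labels, and every animal received bleomycin (BLM) under the skin on alternate days until day 28. BLM is a cytotoxic antibiotic used to induce skin fibrosis in mice as a model of scleroderma. No saline-treated library was analysed here, so each value describes BLM-treated skin. The KO line was made by injecting fertilized eggs with Cas9 mRNA and guide RNA, and which exons were removed, and whether the line derives from a single founder, is not given in the sources used here. The labels do not say that each library came from a separate animal, so p-values measure only the spread between these libraries.

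A gasdermin is held inactive by its own C-terminal part until a protease cuts the linker between both parts. The freed N-terminal part then assembles into pores in the plasma membrane, through which IL-1β and IL-18 leave the cell and which can end in a lytic death called pyroptosis. GSDMD is the gasdermin cut by the inflammatory caspases downstream of inflammasomes, and is best known from macrophages and neutrophils. Gasdermins C are cut by caspase-8. The mouse carries several copies of the A and C types, which are known mainly from epithelia, and mutations of Gsdma3 cause hair loss and skin defects in mice. Pejvakin, encoded by Pjvk, is the most distant relative and is known for its role in hearing.

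The start of the coding sequence shows how close the copies lie to each other, which bears on how far their reads can be told apart. The first 60 coding bases of each gene below were read from the GENCODE annotation of mouse build NCBIM37 (mm9), 5′ to 3′. For the A and C genes, capitals mark bases that differ from Gsdma and from Gsdmc, respectively. Gsdmd and Gsdme are shown for the contrast and carry no capitals.
Gsdmd: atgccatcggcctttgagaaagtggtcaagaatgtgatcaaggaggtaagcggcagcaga
Gsdme: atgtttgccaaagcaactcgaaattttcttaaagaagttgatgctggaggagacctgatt
Gsdma: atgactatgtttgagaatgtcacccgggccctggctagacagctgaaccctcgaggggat
Gsdma2: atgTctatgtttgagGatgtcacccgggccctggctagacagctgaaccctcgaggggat
Gsdma3: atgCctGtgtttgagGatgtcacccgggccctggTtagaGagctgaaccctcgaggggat
Gsdmc: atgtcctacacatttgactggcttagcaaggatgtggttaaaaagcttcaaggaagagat
Gsdmc2: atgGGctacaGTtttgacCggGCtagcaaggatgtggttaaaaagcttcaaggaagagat
Gsdmc3: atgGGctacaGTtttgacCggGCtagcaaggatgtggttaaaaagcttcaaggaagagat
Gsdmc4: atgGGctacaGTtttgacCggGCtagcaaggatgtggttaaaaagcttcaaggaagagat

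Over these bases Gsdma2 differed from Gsdma at 2 positions and Gsdma3 at 5. Gsdmc2, Gsdmc3 and Gsdmc4 each differed from Gsdmc at 7 positions and shared the same 60 bases. Over the whole aligned coding sequence, Gsdmc2 and Gsdmc3 were 97.1% identical. Their annotated transcripts shared a longest identical run of 317 bases, which exceeds the read length of 150 bases given in the labels. Of the stretches of 150 bases in the annotated transcript of Gsdmc2, 10.4% occurred in that of Gsdmc3 as well, and 2.35% in that of Gsdmc4. Of those in Gsdmc3, 14.7% occurred in Gsdmc2. The annotated transcript of Gsdmc3 holds only its 1443 coding bases, so sharing outside the coding sequence could not be counted for it. Gsdmc shared 1.6% of such stretches with Gsdmc2. The Gsdma copies were 91.5% identical between Gsdma and Gsdma2 and 89.8% between Gsdma and Gsdma3, and shared no stretch of 150 bases. Gsdmd was 62.6% to 65.7% identical to the other members over the aligned coding bases alone. Over the length of the longer coding sequence, identity was 45.4% for Pjvk, the lowest, to 56.7% for Gsdmc3. No identical run between the transcript of Gsdmd and another was over 12 bases. Values within the Gsdmc group are therefore uncertain where reads fall on shared stretches, while those of Gsdmd do not share reads of full length with a relative.

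The values are FPKM, fragments per kilobase of transcript scaled to the depth of each library, which the authors had already divided by length and depth, so levels can be compared between genes. From the steps in which low values rise, the depth was estimated at about 12700000 to 17400000 fragments per library, and 3 fragments on a transcript of 1 kb would read as 0.173 to 0.236 FPKM. Differences are in units of log2(FPKM + 1), in which low genes appear to differ less than they do, and 13027 genes that reached 1 FPKM in 2 libraries or more were tested with limma. The adjusted rule asked for an adjusted p under 0.05 (Benjamini-Hochberg) and an absolute log2 difference above 1, and 0 genes passed it, while 2230 genes (17.1%) had an unadjusted p under 0.05 in the same limma fit. The weaker rule asked for an unadjusted p under 0.05 and the same size, and it called 4.14% of all tested genes lower and 6.16% higher in KO. For any gene taken alone, the smallest two-sided p that exact permutation of 2 against 2 libraries allows is 0.333. The libraries also differed in what the skin samples held. The 8 macrophage markers summed to 814.8 and 1064 FPKM in WT, against 455 and 38.5 in KO, and the 6 fibroblast markers to 24.9 FPKM in KO replicate 2 against 180 to 422 FPKM elsewhere. KO replicate 1 stood apart by 315 FPKM of inner root sheath markers, against 0.669 to 8.24 FPKM in the others. Basal and suprabasal keratins and muscle markers were present in every library. Of 15 Y-linked genes, 4 were above 0 in KO replicate 2, with a sum of 1.78 FPKM, and 0 in the other libraries, although the labels call all mice female. For this reason the difference of each tested member without KO replicate 2 is given beside its value.

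Gsdmd, the knocked-out gene, was lower in KO skin but its RNA was still present. It lies on the plus strand of chromosome 15 from 75692769 to 75697834 (mm9), with 11 exons in a single annotated transcript of 1776 bases. Gsdmd stood at 14.05 and 18.15 FPKM in the WT libraries and at 3.53 and 2.26 FPKM in the KO libraries. Both KO libraries were thus far below both WT libraries, and neither was near the floor of detection. By the estimated depth these values correspond to about 434 and 457 fragments in WT and about 86.6 and 51.1 in KO. The group means were 16.1 ± 2.90 and 2.90 ± 0.902 FPKM (SD, n = 2 each), so that WT skin held 5.56 times the level of KO skin. On the log2 scale the difference was -2.14 (standard error 0.29, 95% interval -2.89 to -1.39, adjusted p = 0.248 by limma), which met the weaker rule and not the adjusted rule. Gsdmd ranked 15 by p among the 13027 tested genes and 155 by size among the most negative differences. Leaving out each library in turn gave -2.38 to -1.90; without KO replicate 1 the difference was -2.38 and passed the adjusted rule (limma adjusted p = 0.00427) in a fit that passed 2058 genes. Without KO replicate 2 it was -1.90 (limma adjusted p = 0.0912), and the limma adjusted p was 0.471 without WT replicate 1 and 0.941 without WT replicate 2. In whole skin, fewer cells of a type and less RNA per cell cannot be told apart, and this holds for each gene below. Because the deleted stretch is not known here, the FPKM value says how much RNA of the locus was counted and not whether it encodes a whole protein.

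**Figure D1:**
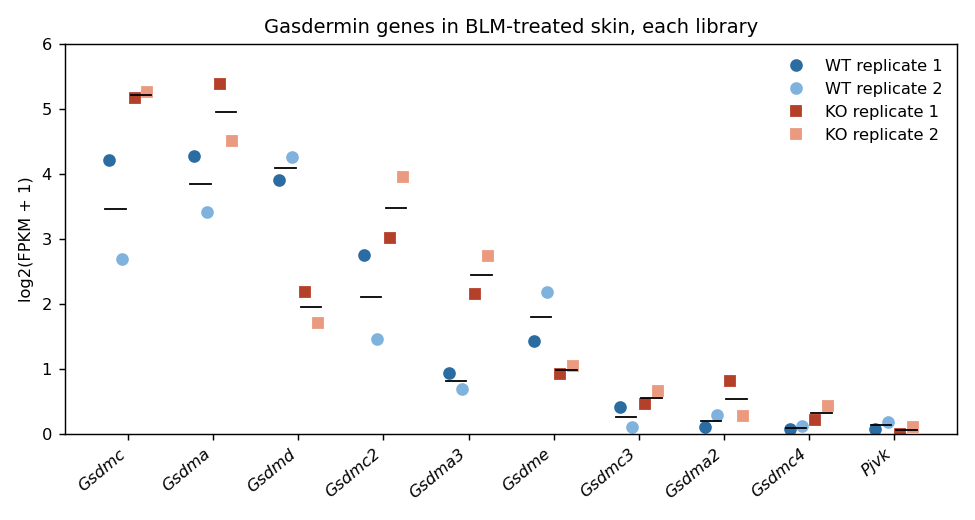
The plot of levels by library gives log2(FPKM + 1) on the vertical axis for the 10 gasdermin genes, ordered by their mean over all libraries. Circles are WT libraries, squares are KO libraries and short lines are the mean of each group (n = 2). Gsdmd and Gsdme lie lower in both KO libraries than in both WT libraries, and Gsdmc, Gsdma, Gsdmc2 and Gsdma3 lie higher.

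Gsdmd had the highest mean of the family in WT skin and the fifth in KO skin. In WT, Gsdmd was followed by Gsdma (14.0 ± 6.22 FPKM), Gsdmc (11.5 ± 8.62 FPKM), Gsdmc2 (3.74 ± 2.81 FPKM) and Gsdme (2.60 ± 1.29 FPKM; SD, n = 2 for each), and the libraries of each of these overlapped with those of the next. Gsdma3 came next at 0.759 ± 0.199 FPKM and did not overlap with Gsdme, and Gsdmc3, Gsdma2, Pjvk and Gsdmc4 had means of 0.205 FPKM or less, each overlapping with the next. In KO, Gsdmc (36.1 ± 1.87 FPKM) and Gsdma (31.2 ± 13.3 FPKM) were the highest and overlapped with each other. Gsdmc2 (10.8 ± 5.30 FPKM) lay between them and Gsdma3 (4.55 ± 1.60 FPKM) without overlap. Gsdma3 and Gsdmd overlapped in KO, and Gsdme was below both at 0.975 ± 0.130 FPKM.

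Of the 10 members, 6 passed the filter and were tested, while Gsdma2, Gsdmc3, Gsdmc4 and Pjvk were too low. Among the 6, 1 was called lower by the weaker rule (Gsdmd) and 2 higher (Gsdma3 and Gsdmc), with 0 by the adjusted rule, against the 4.14% and 6.16% of all tested genes. Both KO libraries were above both WT libraries in 4 of the 6, as in 35.3% of all tested genes, and below in the remaining 2, as in 20.5% of all tested genes. Gsdma3 passed the filter only through KO libraries, so its place among the higher members was fixed by the filter. The median difference of all tested genes was 0.11, or 0.01 after scaling by median-ratio factors. Without WT replicate 1, the weaker rule called 2 members lower and 4 higher, and without WT replicate 2 it called 1 lower and 1 higher. Over all genes the same fits called 428 lower and 888 higher without WT replicate 1, and 242 lower and 266 higher without WT replicate 2.

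**Figure D2:**
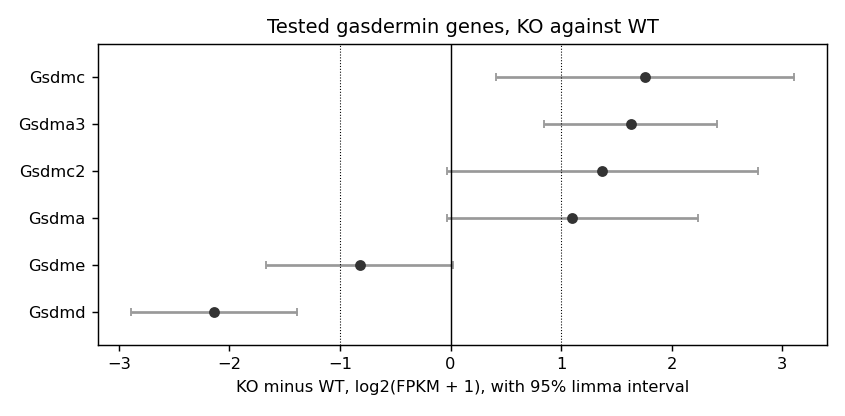
The plot of differences gives KO minus WT on the log2(FPKM + 1) scale for the 6 tested gasdermin genes, with 95% intervals from limma, and dotted lines at -1 and 1. The intervals of Gsdmd, Gsdma3 and Gsdmc do not reach 0, whereas those of Gsdma, Gsdmc2 and Gsdme do.

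The Gsdma genes lie side by side on the plus strand of chromosome 11, with Gsdma3 from 98487674 to 98499403, Gsdma2 from 98508073 to 98519271 and Gsdma from 98525665 to 98539022 (mm9). All 3 had higher means in KO skin. Gsdma, the most abundant of them, stood at 18.4 and 9.61 FPKM in WT, against 40.6 and 21.8 in KO. The groups did not overlap, although the lower KO library was only 1.19 times the higher WT library. Its mean was 2.23 times higher in KO, and the log2 difference of 1.10 (standard error 0.44, 95% interval -0.03 to 2.24, adjusted p = 0.297 by limma) met neither rule. It was 1.54 without KO replicate 2 or without WT replicate 1, and 0.67 without either of the others.

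Gsdma3, known for the mutations that leave mice without hair, had the largest fold between the group means among the tested members of the A and C types. It stood at 0.900 and 0.619 FPKM in WT, against 3.42 and 5.68 in KO, about 24.8 and 13.9 fragments against about 74.9 and 114.9. The lower KO library was 3.80 times the higher WT library, and the means differed 6.00-fold. The log2 difference was 1.63 (standard error 0.31, 95% interval 0.85 to 2.41, adjusted p = 0.248 by limma), which met the weaker rule. Gsdma3 passed the filter only through its KO libraries, so that a difference in this direction was a condition of being tested. With a pseudocount of 0.1 in place of 1 the difference was 2.41, and without KO replicate 2 it was 1.33. Without KO replicate 1 it was 1.93 and passed the adjusted rule (limma adjusted p = 0.00827), in a fit that passed 2058 genes. The limma adjusted p of Gsdma3 was 0.471 without WT replicate 1, 0.941 without WT replicate 2 and 0.171 without KO replicate 2. Gsdma2 stood at 0.0741 and 0.224 FPKM in WT, against 0.753 and 0.203 in KO. The groups overlapped, and only KO replicate 1, with about 17.4 fragments, was clearly above the floor. The ratio of Gsdma to Gsdma3 was 20.5 and 15.5 in WT and 11.9 and 3.84 in KO, lower in either KO library than in either WT library.

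The Gsdmc genes lie on the minus strand of chromosome 15, Gsdmc from 63607526 to 63640294, Gsdmc2 from 63655901 to 63676731, Gsdmc3 from 63689280 to 63710113 and Gsdmc4 from 63722820 to 63743852 (mm9). All 4 had higher means in KO skin, at very different levels. Gsdmc stood at 17.6 and 5.45 FPKM in WT, against 34.8 and 37.4 in KO. The KO libraries were close to each other and the WT libraries differed widely, with the lower KO library 1.97 times the higher WT library. The mean was 3.13 times higher in KO, with a log2 difference of 1.76 (standard error 0.53, 95% interval 0.41 to 3.11, adjusted p = 0.249 by limma), which met the weaker rule. The size depended on the WT libraries: it was 2.52 without WT replicate 1 and 0.99, under the limit, without WT replicate 2. Without KO replicate 2 it was 1.71.

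Gsdmc2 stood at 5.72 and 1.76 FPKM in WT, against 7.03 and 14.5 in KO. WT replicate 1 and KO replicate 1 were near each other, and the log2 difference of 1.37 (standard error 0.55, 95% interval -0.03 to 2.78, adjusted p = 0.296 by limma) met neither rule. It was 0.73 without WT replicate 2, 2.02 without WT replicate 1 and 0.90 without KO replicate 2. Without KO replicate 1 it was 1.85 and passed the adjusted rule (limma adjusted p = 0.0460), again among 2058 genes. Its limma adjusted p was 0.471, 0.941 and 0.564 without WT replicate 1, WT replicate 2 and KO replicate 2. Gsdmc was 3.08 and 3.10 times Gsdmc2 in the WT libraries and 4.95 and 2.58 times in KO, so the ratio was nearly the same in both WT libraries although each gene differed about as widely between them. Gsdmc3 stood at 0.332 and 0.0785 FPKM in WT, against 0.369 and 0.578 in KO. Gsdmc4 stood at 0.0523 and 0.0809 FPKM in WT, against 0.157 and 0.346 in KO. Neither was tested, both rest on about 10.6 fragments or fewer per library, and Gsdmc3 shares stretches of read length with the more abundant Gsdmc2. The gasdermin-like genes Gsdmcl1 and Gsdmcl2 and the pseudogene Gsdmcl-ps, which lie in or beside the same cluster, are listed at 0 in every library.

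Gsdme, whose human counterpart is known for inherited hearing loss, was the only tested member besides Gsdmd that was lower in KO skin. It is listed on chromosome 6 from 50157402 to 50211768 (mm9), on the minus strand. Gsdme stood at 1.69 and 3.51 FPKM in WT, against 0.883 and 1.07 in KO. The groups did not overlap, with the KO libraries close together and WT replicate 2 the highest. The log2 difference was -0.82 (standard error 0.33, 95% interval -1.67 to 0.02, adjusted p = 0.297 by limma) and met neither rule. It was -1.19 without WT replicate 1, -0.45 without WT replicate 2 and -0.89 without KO replicate 2. Pjvk, listed on chromosome 2 from 76488330 to 76496611 (mm9), stood at 0.0546 and 0.130 FPKM in WT and was listed at 0 and at 0.0745 FPKM in KO. No library was above about 2.3 fragments, so no difference of Pjvk was detectable at this depth.

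The make-up of gasdermin RNA differed accordingly. All 10 members summed to 58.9 and 39.6 FPKM in WT, against 91.6 and 84.0 in KO. Without Gsdmd, the other 9 summed to 44.9 and 21.5 FPKM in WT, against 88.0 and 81.8 in KO, 2.56 times higher on average. Gsdmd made up 23.8% and 45.8% of the family in WT and 3.86% and 2.69% in KO. Gsdmc made up 29.9% and 13.8% in WT and 38.0% and 44.6% in KO, so its share was higher in both KO libraries. The share of Gsdma overlapped between the groups, at 31.2% and 24.3% in WT and at 44.4% and 26.0% in KO. Gsdma3 took 1.53% and 1.56% in WT and 3.74% and 6.77% in KO, and Gsdme took 2.87% and 8.87% in WT and 0.965% and 1.27% in KO. Shares are parts of a whole, so that a lower share of Gsdmd raises the summed share of the other 9, though not that of each. The share of Gsdme was lower in both KO libraries as well.

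**Figure D3:**
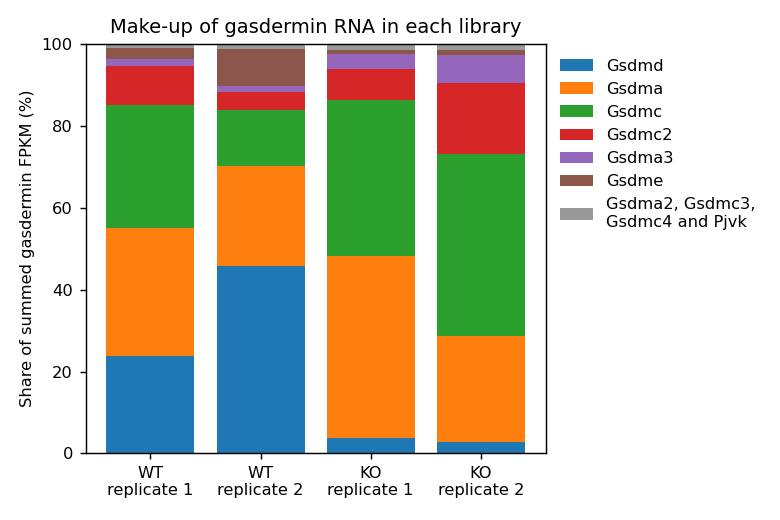
The stacked bars give the share of each gasdermin gene in the summed gasdermin FPKM of each library, in percent. Gsdmd takes 23.8% and 45.8% of the WT bars and 3.86% and 2.69% of the KO bars, and Gsdmc and Gsdma together take most of the KO bars.

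Some marker lists of skin cell types differed between the groups as well. The 7 basal epidermis markers, among them Krt5 and Krt14, summed to 2278 and 2188 FPKM in WT, against 4828 and 5284 in KO, and 6 of the 7 were called higher by the weaker rule, against 6.16% of all tested genes, with a median log2 difference of 1.11. Of the 8 macrophage markers, 5 were called lower, against 4.14% of all tested genes, with a median of -2.59. The 7 sebaceous gland markers summed to 39.9 and 21.3 FPKM in WT, against 203.7 and 1068 in KO, and 5 of the 6 tested were called higher, against the same 6.16%. Of the 8 suprabasal markers 7 overlapped between the groups. Flg2 was higher in both KO libraries, as were 35.3% of all tested genes. Their sums were 4283 and 2389 FPKM in WT, against 8899 and 1995 in KO, and 0 of the 8 were called. The 7 neutrophil markers summed to 12.1 and 17.4 FPKM in WT, against 8.74 and 3.80 in KO, and 2 of the 3 tested were called lower, against the same 4.14%, Csf3r with a log2 difference of -1.80 and Retnlg with -1.25. The 5 T cell markers summed to between 3.63 and 10.8 FPKM. Hair shaft keratins and their regulator Hoxc13 summed to 62.4 FPKM in KO replicate 1 and to 0.701 to 6.14 FPKM elsewhere, and 4 nerve markers to 44.7 FPKM in KO replicate 2 and 148 to 201 FPKM elsewhere. The 5 skeletal muscle markers summed to 19950 and 18910 FPKM in WT, against 12240 and 12490 in KO, with a median log2 difference of -0.73, and 4 of the 5 were lower in both KO libraries than in both WT libraries, against 20.5% of all tested genes. Of these, Myh4, a myosin of fast fibres, was called lower by the weaker rule (-1.30). Of the 7 inner root sheath markers, 4 were at 0 in WT replicate 2 and 1 in KO replicate 2. None of the macrophage, basal or suprabasal markers was at 0 in any library.

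The members were also set against the mean log2 level of marker lists in the same library, and the differences depended on the list. Gsdma lay -2.07 and -2.85 log2 units from the basal markers in WT and -1.92 and -3.12 in KO, a difference of means of -0.06. For Gsdmc these distances were -2.13 and -3.56 in WT and -2.14 and -2.37 in KO, and for Gsdmc2 the means differed by 0.21, with overlap for both genes. Gsdma3 lay at -5.42 and -5.56 in WT and at -5.16 and -4.90 in KO, so both KO libraries remained above both WT libraries, by 0.47 on average. Against the sebaceous gland markers all 4 of these genes were lower in KO on average, by differences of -1.29 for Gsdma, -0.76 for Gsdma3, -0.64 for Gsdmc and -1.02 for Gsdmc2. Gsdma and Gsdmc overlapped between the groups there, whereas Gsdma3 and Gsdmc2 were lower in both KO libraries. Against the suprabasal markers all 4 were higher on average, by 0.41, 0.94, 1.07 and 0.68 in the same order, with overlap for each. Against the macrophage markers they were higher in both KO libraries, by 3.57, 4.10, 4.22 and 3.84. For Gsdmd the distances to the basal markers were -2.44 and -1.99 in WT and -5.12 and -5.93 in KO. Gsdmd was also lower in both KO libraries relative to the suprabasal (-2.83) and sebaceous gland markers (-4.54). Relative to the macrophage markers, Gsdmd lay at -1.98 and -1.95 in WT and at -2.84 and -0.45 in KO, so the KO libraries fell on both sides of the WT libraries. Relative to the fibroblast markers Gsdmd overlapped as well, with a difference of means of -1.30, whereas Gsdma, Gsdma3, Gsdmc and Gsdmc2 differed by 1.94, 2.47, 2.60 and 2.21, with overlap only for Gsdmc2. Gsdme overlapped relative to both lists, with differences of 1.64 against macrophage and 0.02 against fibroblast markers, and also relative to the suprabasal markers (-1.51). It was lower in both KO libraries relative to the basal (-1.99) and the sebaceous gland markers (-3.22). These distances were added after the data had been seen and carry no test, and the part of cell type shares in the differences of the members was not tested.

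**Figure D4:**
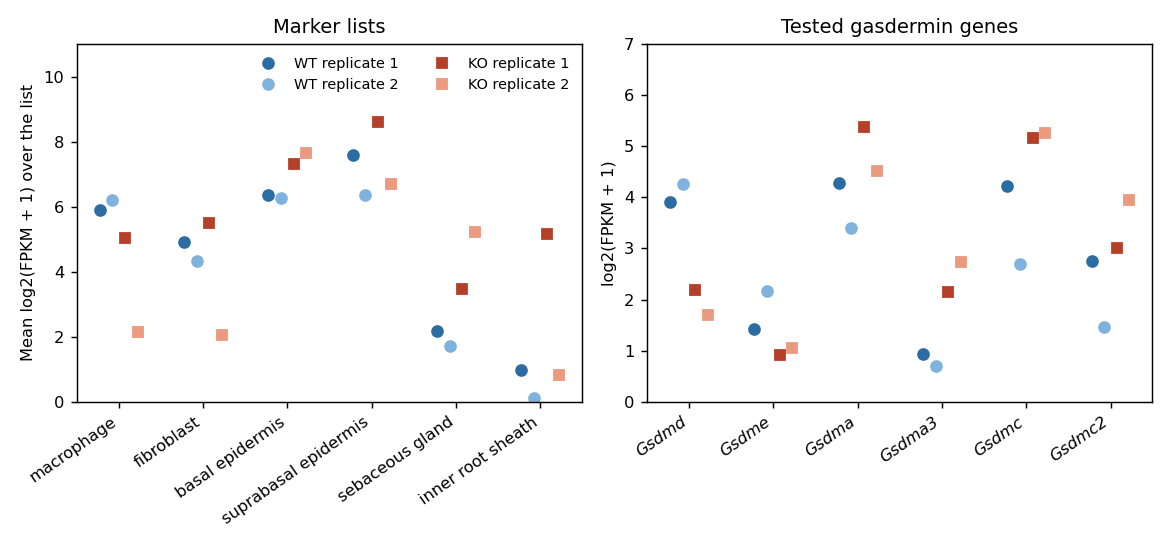
The left panel gives the mean log2(FPKM + 1) over each of 6 marker lists, and the right panel log2(FPKM + 1) of the 6 tested gasdermin genes, with circles for WT and squares for KO libraries. Macrophage markers lie lower and basal and sebaceous markers higher in both KO libraries, and KO replicate 2 is far below the others for macrophage and fibroblast markers.

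The genes that neighbour the gasdermins were compared with them by locus. Of the 10 nearest genes of Gsdmd in the table, 8 were tested, with a median log2 difference of 0.08. The weaker rule called 1 of them lower, Mafa, against 4.14% of all tested genes. Mafa, a transcription factor, lies 114417 bases before Gsdmd and stood at 22.2 and 31.0 FPKM in WT, against 8.37 and 6.60 in KO, with a log2 difference of -1.69 (standard error 0.28, adjusted p = 0.248 by limma). The genes directly beside Gsdmd differed less. Zc3h3 before it had a log2 difference of -0.11 and overlapped between the groups. Mroh6 after it stood at 2.38 and 1.51 FPKM in WT, against 4.21 and 3.81 in KO, a log2 difference of 0.78, and Naprt had 0.02. Around the Gsdma cluster 6 of 10 neighbours were tested, with a median of -0.33, against 1.10 and 1.63 for Gsdma and Gsdma3. Of these 6, 1 was called higher, against 6.16% of all tested genes. This was Grb7, a signalling adaptor, at 5.45 and 3.95 FPKM in WT, against 13.0 and 13.4 in KO, with a log2 difference of 1.33. Psmd3 (-0.27) and Med24 (-0.29) were not called. Csf3, a granulocyte growth factor 23605 bases after the Gsdma cluster, stood at 0.994 and 2.38 FPKM in WT and at 0.0599 FPKM and 0 in KO. It was too low to be tested. Around and within the Gsdmc cluster 5 of 13 neighbours were tested, with a median of -0.12. Of these 5, 1 was called higher, against the same 6.16% of all tested genes. This was Myc, 1785610 bases away, at 9.21 and 8.54 FPKM in WT, against 13.5 and 30.9 in KO. Its log2 difference was 1.13, and leaving out KO replicate 1 brought it to 1.69. The call was lost at 0.56 when KO replicate 2 was left out. It was also lost without either WT library, without a filter, and with median-ratio or upper-quartile scaling, where the difference stayed between 1.01 and 1.18 and the unadjusted p was over 0.05. Mafa and Grb7 stayed called in each fit that left out a library.

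For each tested member that spanned over 1 log2 unit, the genes with the most similar pattern over the 4 libraries were found among 13021 tested genes outside the family. Likeness was the root mean square difference between log2(FPKM + 1) values after each gene was centred on its own mean, so that 0 is an equal pattern. With only 4 libraries it describes a resemblance that many genes can share. Nearest to Gsdmd were AA467197 (0.094 log2 units), Cd300a (0.117), Mybph (0.140), Lair1 (0.144) and Dpep2 (0.146), and 18 genes lay within 0.2. Of these, Cd300a and Lair1 encode inhibitory receptors of leukocytes, and Mybph encodes a myosin binding protein of muscle. Cd300a stood at 5.93 and 9.20 FPKM in WT, against 1.59 and 0.604 in KO. Nearest to Gsdma were Rnf39 (0.050), Tmem40, Ereg, Dmkn and Gltp (0.083), of which Ereg encodes a ligand of the EGF receptor and Dmkn a secreted protein of the epidermis, with 65 genes within 0.2. Gsdma3 was closest to BC016579 (0.036), Gata3, Pthlh, Fam81a and Epb41l4b (0.059), with 133 genes within 0.2, and Gata3, a transcription factor of the epidermis and of lymphocytes, stood at 11.1 and 8.53 FPKM in WT, against 27.1 and 39.5 in KO. Gsdmc had fewer close genes, 11 within 0.2, led by Gramd1c (0.101), Sptlc3, Dsg1b, Crb3 and Spink5 (0.166), where Dsg1b is a cadherin of epidermal desmosomes and Spink5 an inhibitor of epidermal proteases. For Gsdmc2 the nearest were Rps27rt (0.059), Gt(ROSA)26Sor, Snhg3, Hmgn2 and Smc4 (0.084), with 35 within 0.2. For Gsdme they were G530011O06Rik (0.048), Sod2 (0.049), Cpt2, Sntb1 and Gtf2ird2 (0.093), with 92 within 0.2, and Sod2 is the mitochondrial superoxide dismutase.

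The pathway that acts on gasdermins was followed in a list of 35 genes, of which 26 were tested. By the weaker rule 3 of the 26 were lower (Nlrp3, Mefv and Il1b), against 4.14% of all tested genes, and 1 was higher (Il18), against 6.16%. In the limma fit with all libraries 0 passed the adjusted rule and 8 had an unadjusted p under 0.05, against 17.1% of all tested genes, and the median difference was -0.15 against 0.11 for all tested genes. Without KO replicate 1, 6 were lower, in a fit that called 1605 of all genes lower in place of 539. The sensors, which start the inflammasome, were low genes in every library. Of the 11 sensors in the table, 6 were too low to be tested. The 5 tested were lower in both KO libraries than in both WT libraries, as were 20.5% of all tested genes. Of these 5, Nlrp3, Mefv, Naip2 and Naip5 passed the filter only through the WT libraries, so that a lower level in KO was a condition of their being tested. Nlrp3, the sensor of membrane damage and ion efflux, stood at 2.33 and 2.87 FPKM in WT, against 0.476 and 0.247 in KO, a log2 difference of -1.40 (standard error 0.25, adjusted p = 0.248 by limma). Mefv, which encodes pyrin, stood at 2.05 and 4.66 FPKM in WT, against 0.481 and 0.176 in KO, a log2 difference of -1.65. With a pseudocount of 0.1 in place of 1 the differences were -2.59 for Nlrp3 and -3.0 for Mefv. Without KO replicate 1 both passed the adjusted rule, with limma adjusted p = 0.0195 for Nlrp3 and 0.0256 for Mefv, in a fit that passed 2058 genes. Without KO replicate 2 the limma adjusted p was 0.183 for Nlrp3 and 0.204 for Mefv, and it was 0.471 for both without WT replicate 1 and 0.941 for both without WT replicate 2. Aim2, the sensor of cytosolic DNA, had a log2 difference of -0.45, with 2.90 and 2.59 FPKM in WT, against 1.45 and 2.07 in KO.

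Downstream of the sensors the order was different. Pycard, the adaptor ASC that joins sensors to caspase-1, stood at 30.6 and 32.0 FPKM in WT, against 48.0 and 58.2 in KO. Both KO libraries were above both WT libraries, but the log2 difference, 0.74 with a standard error of 0.24 (limma adjusted p = 0.258), was under the size limit. Casp1, the protease that cuts GSDMD and pro-IL-1β, stood at 11.1 and 6.06 FPKM in WT, against 12.1 and 17.5 in KO, with a log2 difference of 0.75 (adjusted p = 0.347 by limma). The difference of Casp1 depended on the WT libraries, at 1.14 without WT replicate 1 and 0.37 without WT replicate 2. Of the 9 proteases known to cut gasdermins, 6 were tested and 0 were called by either rule in the fit with all libraries. In that fit 0 had an unadjusted limma p under 0.05, against 17.1% of all tested genes. Casp4, the mouse gene of caspase-11, which cuts GSDMD after sensing lipopolysaccharide, had a log2 difference of -0.24. Casp8, which cuts gasdermins C, had 0.06, with overlap between the groups. The granzyme and neutrophil proteases Gzmb, Elane and Ctsg were too low to be tested.

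The cytokines that leave through gasdermin pores differed from each other. Il1b stood at 35.7 and 59.8 FPKM in WT, against 2.49 and 4.65 in KO, a log2 difference of -3.41 (standard error 0.39, adjusted p = 0.248 by limma). The highest KO library lay far below the lowest WT library, and Il1b passed the adjusted rule without KO replicate 1 (limma adjusted p = 0.00300) and without KO replicate 2 (limma adjusted p = 0.0111), in fits that passed 2058 and 43 genes. Its limma adjusted p was 0.471 without WT replicate 1 and 0.941 without WT replicate 2. Il18, which keratinocytes also express, stood at 25.4 and 12.1 FPKM in WT, against 41.4 and 34.5 in KO, a log2 difference of 1.06 (standard error 0.39, adjusted p = 0.280 by limma). Its call was lost without WT replicate 2, where the difference was 0.56, without KO replicate 1, where it was 0.93, and with median-ratio or upper-quartile scaling, where it was 0.95. It was also lost without a filter and with the crossed block, with the difference at 1.06 and an unadjusted p over 0.05. Il1a overlapped between the groups, with a log2 difference of 0.26. The study reports by RT-qPCR that transcription of both IL-1β and IL-18 was lower in BLM-treated KO skin. For Il18 the direction here was the opposite, and the cause was not tested.

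Genes that act after the pore, and those that tune gasdermins, were not called. Ninj1, which ruptures the membrane of dying cells, stood at 50.5 and 69.2 FPKM in WT, against 39.8 and 30.1 in KO, with a log2 difference of -0.75 (adjusted p = 0.288 by limma). The membrane repair genes Chmp3 (0.39), Chmp4b (-0.12) and Vps4a (-0.10) showed smaller log2 differences. Irf2, a transcription factor known to drive Gsdmd, stood at 15.6 and 14.0 FPKM in WT, against 10.5 and 9.15 in KO, a log2 difference of -0.55 (adjusted p = 0.314 by limma). Gbp2, an interferon-induced GTPase, stood at 21.3 and 18.3 FPKM in WT, against 12.8 and 10.6 in KO, with a log2 difference of -0.71. Irf1 had -0.43, the palmitoyl transferases Zdhhc5, Zdhhc7 and Zdhhc9 had 0.18, -0.18 and 0.65, and Nek7, a partner of NLRP3, had 0.34. Of these 7 regulators and 4 genes of membrane rupture and repair, 0 were called by either rule. An unadjusted limma p under 0.05 was found for 1 of each set, against 17.1% of all tested genes.

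**Figure D5:**
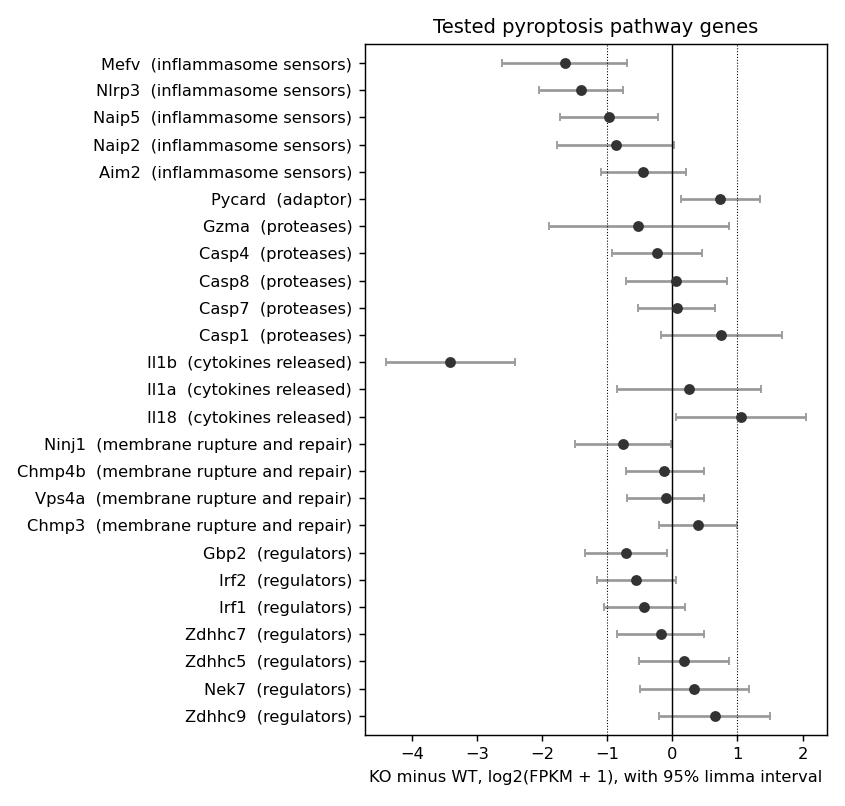
The plot of pathway genes gives KO minus WT on the log2(FPKM + 1) scale for 25 of the 26 tested genes of the pyroptosis list, grouped by role, with 95% intervals from limma and dotted lines at -1 and 1. All 5 tested sensors lie below 0, but 4 of them passed the filter only through WT libraries, Il1b lies farthest down at -3.41, and Il18 at 1.06 is the only gene above the upper dotted line.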

How the data were processed

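Skin RNA of 2 GSDMD KO and 2 WT libraries was analysed, grouped by the labels. The deposited table holds FPKM values per gene, which the authors computed from fragments divided by length and depth; 99.993% of its values above 0 are not whole, so no count model was used. The submitters' processing notes name HISAT2 version 2.0.1, StringTie version 2.0.6 and build mm9, and the study's methods name featureCounts and DESeq2. Which tool made the FPKM values is not given in the sources used here. Among 24441 rows, 0 lacked a gene name and 26 carried a date in place of one. Library sums were 448544 to 462251 FPKM.

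The log2 of FPKM + 1 was taken, with no scaling of the libraries, and fitted with limma version 3.58.1 (R version 4.3.3), genotype as the only term and a mean-variance trend, for genes that reached 1 FPKM in 2 libraries or more, with Benjamini-Hochberg adjustment. Depth was estimated from the steps of low values in 2710 genes whose only transcript spans 2 kb or more, and is approximate. Same-numbered WT and KO libraries had deviations that correlated at -0.20 over 13027 genes and no source pairs them, so they were treated as unpaired. Coding sequences came from GENCODE for NCBIM37, the same build as mm9, and were aligned with Biopython version 1.88. Identical runs and shared stretches were counted over the whole annotated transcripts. Members, gene lists and rules were chosen with earlier results of these data known. Of the tested genes of the pyroptosis list, 1 is not reported here. The genes named were the members, the pyroptosis and marker lists, the 5 table genes nearest on each side of Gsdmd and of the Gsdma and Gsdmc clusters, and the 5 most similar genes per member. Python version 3.11.15, with pandas version 2.3.3, made the tables. Alternatives were other pseudocounts, filters and scalings, no trend, the replicate number as a block, and leaving out each library; a crossed block and levels relative to markers were added after the data had been seen.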

Additional observations from a re-analysis of the deposited data

How the results depend on the processing

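Of 217 values of 17 single genes under 13 alternatives, 0 changed direction and 10 came to pass the adjusted rule, all in fits that left out a KO library. Gsdmd ranged from -2.38 to -1.90 on the log2 scale over the fits that left out 1 library, and its limma adjusted p from 0.00427 to 0.941 over all alternatives. Leaving out 1 library gave 0 to 2058 genes by the adjusted rule (2058 without KO replicate 1, 43 without KO replicate 2, 0 without either WT library). By the weaker rule it gave 242 to 1605 genes lower and 266 to 1412 higher, with the lowest counts without WT replicate 2 and the highest without KO replicate 1, and 333 lower without KO replicate 2. In these fits the lone library is assumed to vary like the other group, and the cause of the shifts was not tested. Members called lower ranged from 1 to 2 and higher from 1 to 4, and pathway genes called lower from 3 to 6 (6 without KO replicate 1) and higher from 0 to 2.

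With a filter of 5 FPKM in 2 libraries or more, 1 member was called higher and 1 pathway gene lower, since fewer genes were tested. Over all genes the same fit called 394 lower and 572 higher. With the replicate block, 4 members were called higher, and over all genes 686 lower, 907 higher and 0 by the adjusted rule. The crossed block gave 681, 819 and 0. The same-numbered libraries share only a number, so neither block was taken as a pairing. The pathway gene Il18 was not called, leaving 0 pathway genes higher, without a filter, with median-ratio or upper-quartile scaling and with the crossed block. Each group has 2 libraries, which differ in cell type markers.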
